A study of Drosophila melanogaster with 12 samples.

Results

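The genes described here code for chemosensory proteins, namely the odorant binding proteins (Obp) and the odorant (Or), gustatory (Gr) and ionotropic (Ir) receptors of Drosophila melanogaster. A feature, that is, a cDNA probe spotted side by side in 2 copies, was counted as a member where the symbol in the array's annotation, or the current symbol of its CG number, began with Obp, Or, Gr or Ir directly followed by a digit. By this rule 37 of 13824 features were members, of which 32 stood for 19 Obp genes and 5 for 5 receptor genes (Or33a, Gr61a, Ir47a, Ir76a and Ir93a). Another 4 features that the annotation pairs with several genes were left out. No member was chosen by its ratio. The RefSeq gene table used for current symbols, of the Release 6 assembly, lists 51 Obp, 60 Or, 60 Gr and 66 Ir symbols, so that the array covered part of the Obp family and only 1 to 3 genes of each receptor family. Of the Obp genes, 11 had 2 features and Obp56d had 3, which are named here by their order in the file (the first feature, the second feature and so on).

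Odorant binding proteins are small soluble proteins that support cells secrete in large amounts into the fluid around chemosensory neurons, where many of them bind odorants or tastants. Several are also made outside the sense organs, for example in fat body, glia or the male reproductive tract. Receptors, by contrast, sit in the membrane of the sensory neurons, and each is usually made in few of them, in antenna, palp, labellum or legs.

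Heads of wild type Oregon-R males were compared. The flies were unmated, 3 to 4 days old at the start, housed as 30 flies per vial, and fed either normal food (NF) or normal food with pentylenetetrazole (PTZ, a GABA antagonist that evokes seizures in rodents) at 8 mg/ml, for 12 hrs, until the 2nd day or until the 7th day. At this dose the study saw no behaviour like seizures in the flies. RNA of pooled heads from NF and PTZ was hybridized together on 2-colour cDNA arrays, 4 for each time point, and the methods call the 4 replicates biological. Replicates 1 and 2 had Cy5 on the PTZ RNA and are called forward arrays, and replicates 3 and 4 had Cy3 on it and are called swapped arrays. For 3 arrays (12 hrs replicates 3 and 4, and 2nd day replicate 2) the label fields disagree with each other about the treatment or the dye, and these were placed by title, treatment protocol and methods. Arrays of 0 hr are not analysed here. In bulk RNA of whole heads, fewer cells of a type and less RNA per cell cannot be told apart.

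The deposited values are log2 ratios, and the sources used here do not settle whether those of the swapped arrays had already been turned to PTZ over NF. For that reason the fits of the members are given in 2 readings, a main reading that multiplies the swapped arrays by -1 (turned) and a second reading as deposited. The 2 means had opposite signs in 14 of 23 tested members for 12 hrs, 10 of 28 for the 2nd day and 19 of 28 for the 7th. Values of single arrays are printed as deposited, in the order of replicates 1 to 4. A negative value means lower in PTZ on the forward arrays in both readings, but on the swapped arrays only as deposited. The median over all features of an array lay between -0.20 and 0.17 on 11 arrays and at -0.64 on replicate 4 of the 7th day, and nothing was centred further.

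Odorant binding protein features had a value more often than other features on every array. On the 12 arrays, 16 to 30 of the 32 Obp features (median 23.5, or 73.4%) had a value, against 22.3% to 65.5% (median 39.6%) of all features and a median of 43.8% of the features with 1 gene symbol. Receptor features had a value in 1 to 5 of 5 cases per array (median 3, or 60%). The lowest Obp share, 50%, was found on replicate 4 of the 7th day, an array on which 23.7% of all features had a value, whereas on replicate 2 of that day 81.3% of the Obp features but only 22.3% of all features were measured. A value was required on at least 3 of the 4 arrays for testing, which left 20 Obp and 3 receptor features among 4642 for 12 hrs, 25 and 3 among 5279 for the 2nd day, and 26 and 2 among 4316 for the 7th. In all, 34 of the 37 members were testable at some time point. The exceptions were both features of Obp99b and that of Ir93a. On all 12 arrays 9 Obp features had a value, and no receptor feature did.

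**Figure D1:**
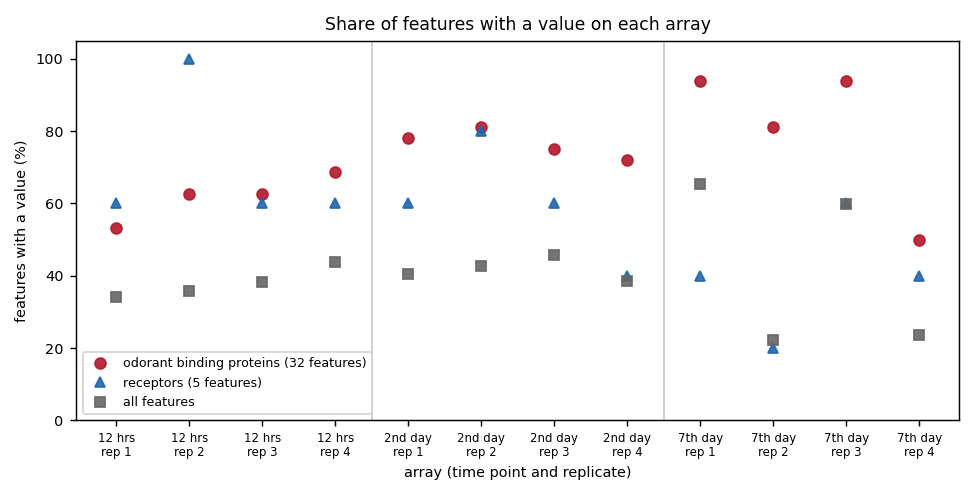
Share of features with a value (y axis, percent) on each of the 12 arrays (x axis, time point and replicate), for the 32 odorant binding protein features (circles), the 5 receptor features (triangles) and all 13824 features (squares). The circles lie above the squares on every array, with medians of 73.4% and 39.6%.

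**Figure D2:**
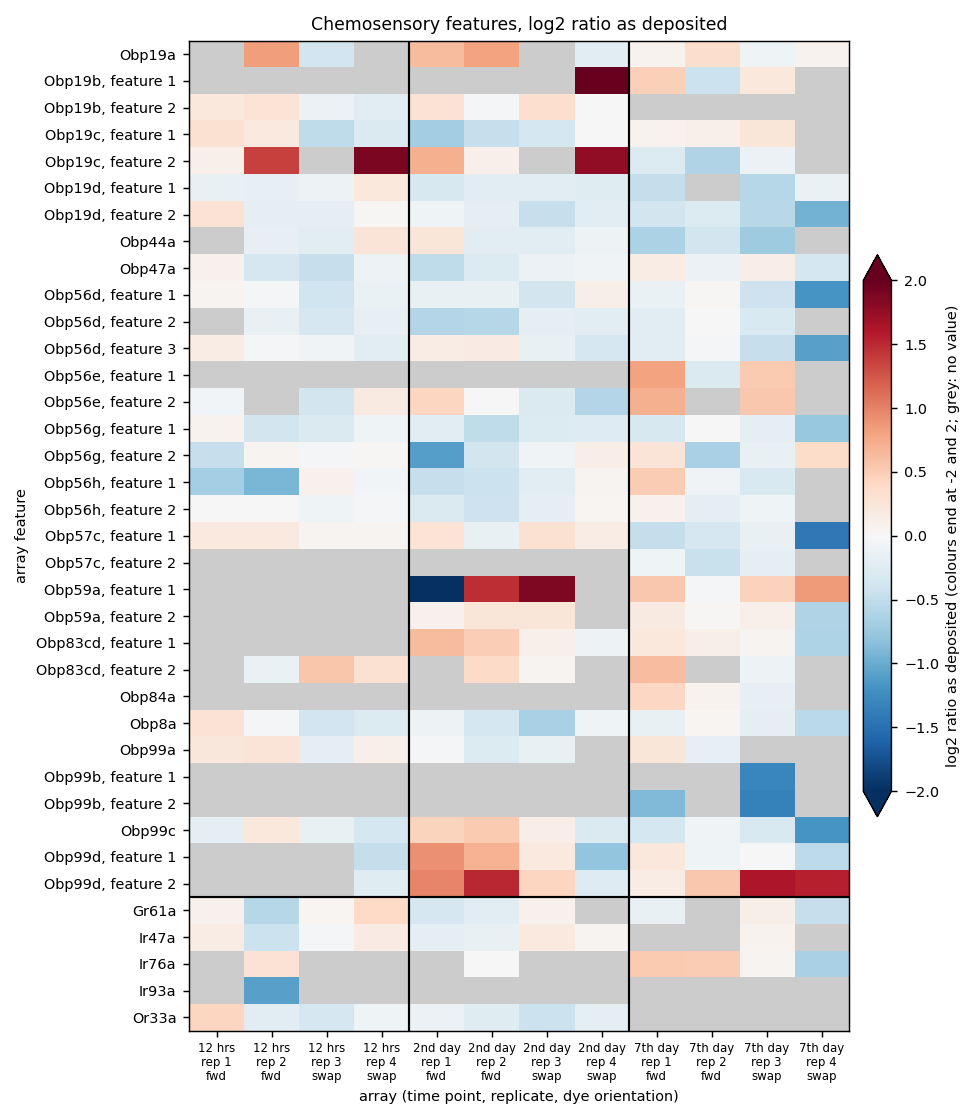
Log2 ratio as deposited (colour) of the 37 chemosensory features (rows, receptors below the line) on the 12 arrays (columns, with time point, replicate and dye orientation), with grey where no value was given. Most values lie near 0, the grey cells are most frequent at 12 hrs and in the receptor rows, and the strongest colours are those of the first feature of Obp19b (2.84 on replicate 4 of the 2nd day), the second of Obp19c, the first of Obp59a and the second of Obp99d.

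In fits over all 4 arrays of a time point without a coefficient for dye orientation, 1 of the 37 members passed an adjusted p of 0.05. That was the second feature of Obp99d, which was higher on the 7th day, and only as deposited. With the swapped arrays turned, 0 of 23 members passed for 12 hrs, 0 of 28 for the 2nd day and 0 of 28 for the 7th (limma, 2-sided, Benjamini-Hochberg over all features tested), where the share of all features called was 0% in both directions at each time. As deposited, 0 members passed for 12 hrs, where 0% of all features did in both directions. For the 2nd day 0 passed too (0.0189% lower and 0% higher of all features), and for the 7th day 0 passed as lower and 1 as higher (0.626% and 0.0463%). The result of the 2nd day depended on the model. With dye orientation as a second coefficient and the swapped arrays turned, 9 of 28 members passed in either direction (18.5% of all features). With that coefficient 0 of 23 passed for 12 hrs and 0 of 28 for the 7th day, where no feature passed at all.

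At an unadjusted p under 0.05 the members that passed differed between the readings. With the swapped arrays turned, 2 of 23 members were lower at 12 hrs (3.73% of all features), namely the first feature of Obp56h and the second of Obp83cd, and 3 were higher (11.9%), namely the first of Obp19c, Obp8a and the second of Obp19b. On the 2nd day 0 of 28 were lower (7.5%) and 4 were higher (1.82%), which were Obp19a, both features of Obp99d and the second of Obp56e. For the 7th day the second feature of Obp99d was lower (0.44%) and 0 were higher (1.83%). As deposited, 12 hrs had 1 lower member (1.53%) and 1 higher (1.81%), the 2nd day 9 lower of 28 (17.8%) and 2 higher (3.07%), and the 7th day 6 lower (9.06%) and 2 higher (0.579%). The 9 lower ones of the 2nd day came from 7 Obp genes (Obp8a, Obp19c, Obp19d, Obp47a, Obp56d, Obp56g and Obp56h) and from Or33a. Those of the 7th day were features of Obp19d, Obp44a, Obp56d, Obp57c and Obp99c.

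The signs of the members are set here beside those of all features tested. Turned, the mean was below 0 in 6 of 20 Obp features for 12 hrs (35.6% of all features tested), in 14 of 25 for the 2nd day (68%) and in 10 of 26 for the 7th (20.4%). As deposited it was below 0 in 15 of 20 (49.9%), 15 of 25 (70.5%) and 18 of 26 (69.5%). Features below 0 on every array with a value were, turned, 1 Obp for 12 hrs (7.88% of all features), 0 for the 2nd day (15.8%) and 0 for the 7th (2.69%), and features above 0 on every array numbered 2 (22.5%), 2 (3.49%) and 1 (14.4%). As deposited 1, 8 and 8 Obp features were below 0 on every array, against 5.82%, 25.2% and 20.4% of all features, and 2 were above 0 each time, against 7.58%, 5.49% and 5.95%. The 8 of the 2nd day belonged to Obp8a, Obp19c, Obp19d, Obp47a, Obp56d, Obp56g and Obp99a, and those of the 7th day to Obp19c, Obp19d, Obp44a, Obp56d, Obp57c and Obp99c. Among the receptors, Gr61a and Ir47a were below 0 on every array of the 2nd day when turned, and Or33a as deposited.

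**Figure D3:**
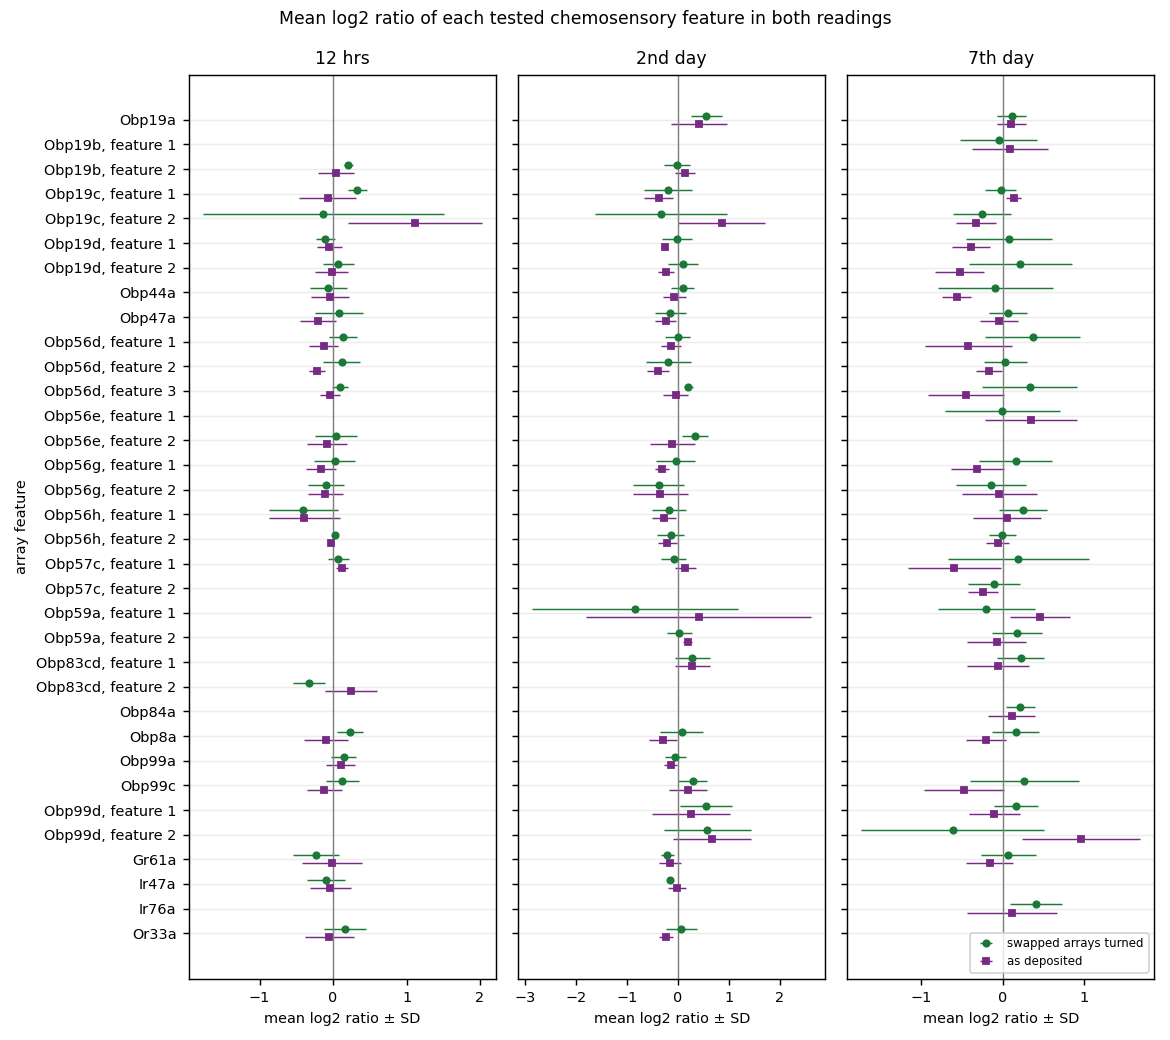
Mean log2 ratio of each tested chemosensory feature (rows) at the 3 time points (panels), with the swapped arrays turned (circles) and as deposited (squares), and bars of 1 SD over the 3 or 4 arrays with a value. The x axes differ in range between panels. On the 7th day the 2 marks of the second feature of Obp99d lie on opposite sides of 0, at -0.62 and 0.96.

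The forward arrays carry the same direction in both readings, though a dye effect cannot be told apart from the treatment on them. In a fit of the pair from the 2nd day, 8 of 25 Obp features were lower and 6 higher at an adjusted p under 0.05, against 34% lower and 7.05% higher of the 4850 features with a value on both, and 0 of 3 receptor features passed. Because these 2 arrays had negative medians, the counts were repeated with each array centred on its median, an alternative chosen after seeing the data, and 3 Obp features were then lower and 10 higher, against 12% and 15.5% of all features. The higher features before centring were Obp19a, the second of Obp19c, the first of Obp83cd, Obp99c and both of Obp99d, with means from 0.40 to 1.24 (n = 2 arrays each). Lower means, from -0.33 to -0.73, were found for the first feature of Obp19c, Obp47a, the second of Obp56d, both of Obp56g, both of Obp56h and the first of Obp59a. In this fit all features were given 1 common spread, so that a call followed the mean alone: the first feature of Obp59a was called lower with values of -2.14 and 1.48. At 12 hrs, where the spread was common too, 1 of 16 Obp features was lower and 1 higher on the forward arrays (1.28% and 1.2% of all features). On the 7th day 0 of 25 passed (0% in both directions). On the swapped pair of the 2nd day, turned, 0 of 20 Obp and 0 of 2 receptor features passed (0.352% lower and 0.859% higher of all features). Of the features higher on the forward pair, the first of Obp99d had 0.29 there, Obp99c 0.08, the first of Obp83cd -0.0025 and the second of Obp99d -0.09. Obp19a and the second of Obp19c lacked a value on replicate 3. The swapped pair of 12 hrs gave 0 of 19 Obp and 0 of 3 receptor features (0% in both directions).

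Forward and swapped means of the tested features, as deposited, had the same sign in 8 of 20 Obp features for 12 hrs, in 17 of 25 for the 2nd day and in 18 of 26 for the 7th, which is 40%, 68% and 69.2%. Over all features tested the shares were 36.9%, 58.3% and 54.7%. Of the receptors, 0 of 3, 1 of 3 and 1 of 2 had the same sign.

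**Figure D4:**
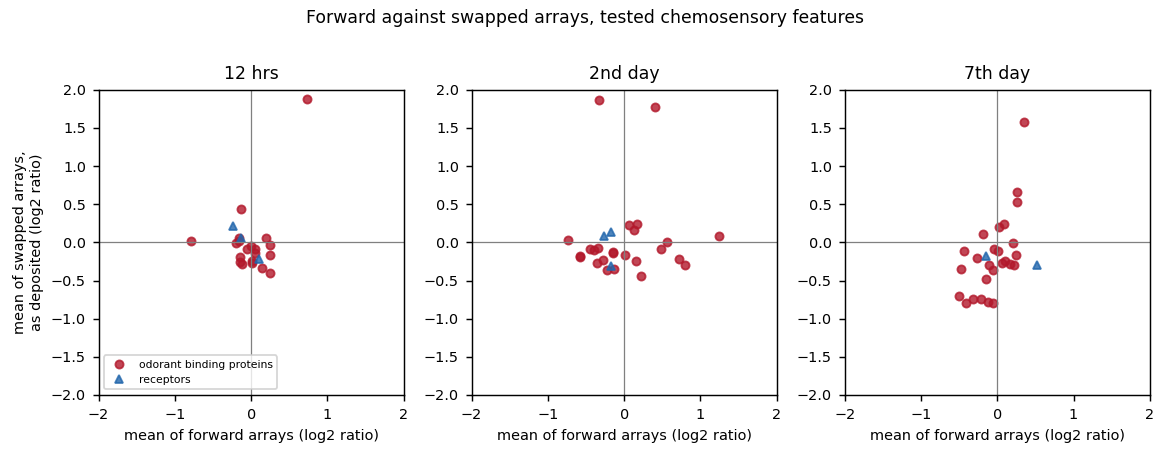
Mean of the swapped arrays as deposited (y axis, log2 ratio) against the mean of the forward arrays (x axis, log2 ratio) for the tested Obp features (circles) and receptor features (triangles) in a panel for each time point. Points in the lower left and upper right have the same sign in both orientations, which held for 8 of 20, 17 of 25 and 18 of 26 Obp features.

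Obp99a, Obp99b, Obp99c and Obp99d lie close together on chromosome arm 3R in the Release 6 gene table, with 10 or fewer genes between any pair of them, and code for minus-C proteins, which lack a pair of the cysteines that most odorant binding proteins share. Obp99d had the highest mean of the tested members on the 2nd day when turned, in its second feature. Its first feature had 0.91, 0.69, 0.20 and -0.79 on the 4 arrays of that day and its second feature 0.97, 1.51, 0.44 and -0.26, so that both features were high on the forward arrays and mixed on the swapped ones. The means were 0.55 ± 0.51 (SD, n = 4, adjusted p = 0.497, limma) and 0.58 ± 0.85 (adjusted p = 0.531) with the swapped arrays turned, and 0.25 ± 0.76 (adjusted p = 0.529) and 0.67 ± 0.76 (adjusted p = 0.198) as deposited. On the forward arrays alone both passed the test, at 0.80 and 1.24. The spots of the second feature were 1.33 apart on replicate 2.

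On the 7th day the 2 features of Obp99d went apart. The second had 0.16, 0.54, 1.61 and 1.55, while the first had 0.21, -0.09, -0.01 and -0.53 on the same arrays. The difference between them was 2.07 on replicate 4, in the same RNA. As deposited the mean of the second feature was 0.96 ± 0.73 (n = 4, adjusted p = 0.00420, limma), and with the swapped arrays turned it was -0.62 ± 1.13 (adjusted p = 0.964). The high values came from the swapped arrays, where the spots had 1.53 and 1.70 on replicate 3 and 1.14 and 1.96 on replicate 4. The forward arrays had -0.26 and 0.57 on replicate 1 and 0.97 and 0.12 on replicate 2. As deposited the adjusted p stayed under 0.05 without replicate 1 (1.24, adjusted p = 0.00818) and without replicate 2 (1.11, adjusted p = 0.000549), but not without replicate 3 (0.75, adjusted p = 0.349) or replicate 4 (0.77, adjusted p = 0.0921), nor with array medians set to 0 as well (1.12, adjusted p = 0.73, an alternative chosen after seeing the data). In this fit, too, limma gave all features a common spread, and the call followed the mean rather than the feature's own SD. With the swapped arrays turned and replicate 1 left out, the second feature had -0.87 (adjusted p = 0.0487). The first feature had -0.10 ± 0.31 as deposited (adjusted p = 0.902) and 0.16 ± 0.27 turned (adjusted p = 0.964). At 12 hrs Obp99d had a value only on replicate 4, of -0.47 and -0.24.

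Obp99c had a value on all 12 arrays. At 12 hrs it had -0.19, 0.21, -0.15 and -0.34. The values of the 2nd day were 0.45, 0.52, 0.13 and -0.29 and those of the 7th day -0.35, -0.07, -0.30 and -1.19. Like Obp99d it was above 0 on both forward arrays of the 2nd day, while on the 7th day it was below 0 on all 4 arrays. The mean of the 7th day was -0.48 ± 0.49 as deposited (adjusted p = 0.463, limma) and 0.26 ± 0.67 turned (adjusted p = 0.964), and without replicate 4 it was -0.24 as deposited. Obp99a had means of 0.14 ± 0.17 at 12 hrs (n = 4) and -0.05 ± 0.21 on the 2nd day (n = 3) turned, and of 0.10 ± 0.20 and -0.15 ± 0.12 as deposited. Obp99b, known from the fat body of the male head, was measured on the 7th day only, when its second feature had -0.88 on replicate 1 and -1.36 on replicate 3, where its first feature had -1.30. With 1 or 2 arrays it was not tested.

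**Figure D5:**
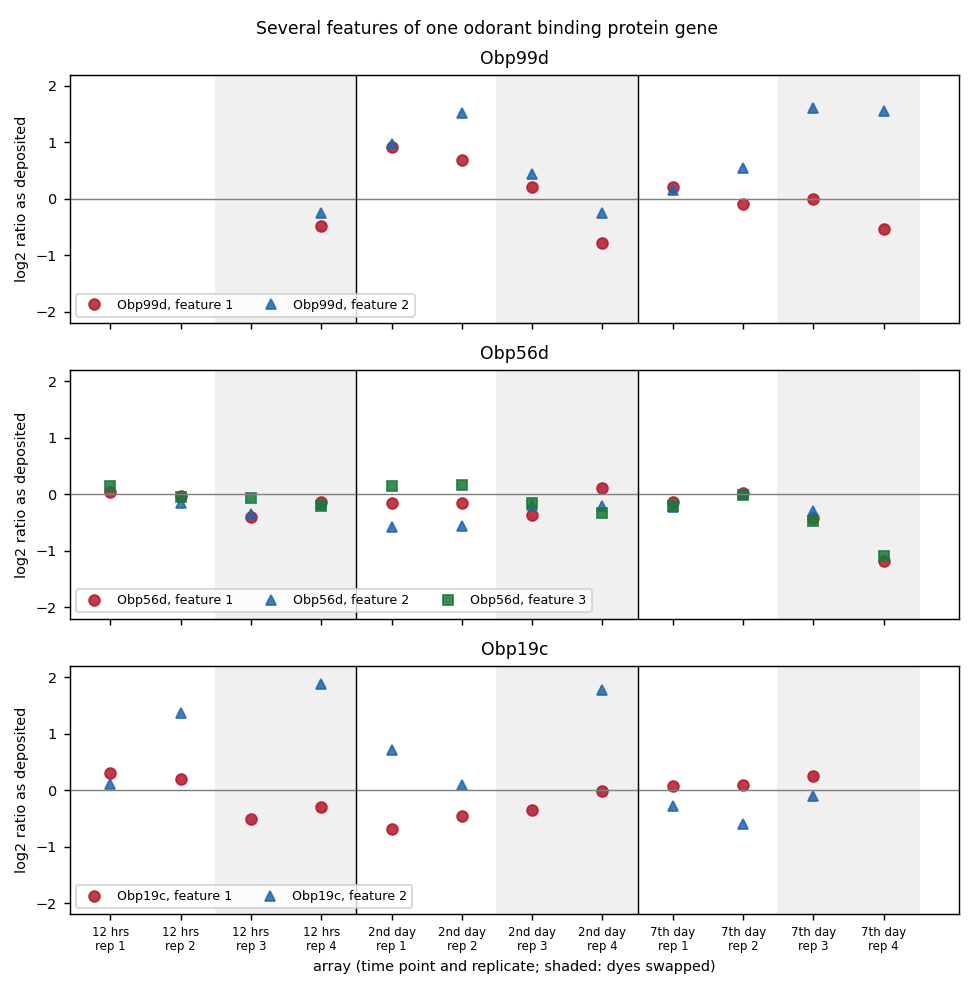
Log2 ratio as deposited (y axis) on the 12 arrays (x axis, swapped arrays shaded) for each feature of Obp99d, Obp56d and Obp19c. The features of Obp56d lie close together on most arrays, whereas those of Obp99d part on the swapped arrays of the 7th day (1.61 and 1.55 against -0.01 and -0.53) and those of Obp19c on most arrays.

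Obp56d and Obp56e, with 1 gene between them, and Obp56g and Obp56h, with 2 between them, lie on chromosome arm 2R. Obp56d, made in olfactory and taste organs, was the only member gene with 3 features, which could be set against each other on 10 to 12 arrays, with median absolute differences of 0.12, 0.09 and 0.12. Over all genes with several features that difference was 0.22, and over the Obp genes 0.21. The first feature of Obp56d had 0.05, -0.03, -0.40 and -0.13 at 12 hrs, then -0.15, -0.14, -0.37 and 0.11 on the 2nd and -0.13, 0.02, -0.41 and -1.17 on the 7th day. The third had 0.14, -0.04, -0.07 and -0.20 at 12 hrs, then 0.15, 0.17, -0.15 and -0.34 on the 2nd and -0.21, -0.02, -0.47 and -1.09 on the 7th day. Hence the 2 features were lowest on the same array, replicate 4 of the 7th day, whose median over all features was -0.64. The features of this gene did not have 1 sign on the forward pair of the 2nd day, since the second feature, without a value on replicate 1 of 12 hrs and replicate 4 of the 7th day, had -0.58 and -0.57 there. As deposited, the means of the first and the third feature on the 7th day were -0.42 ± 0.53 and -0.45 ± 0.47 (n = 4, adjusted p = 0.512 and 0.476, limma), and turned they were 0.37 ± 0.58 and 0.33 ± 0.58 (adjusted p = 0.964 for both). Without replicate 4 they were -0.17 and -0.23 as deposited.

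Obp56g, a protein also known from seminal fluid, had 2 features with values on all 12 arrays that differed by a median of 0.41. On the 2nd day the first had -0.21, -0.50, -0.27 and -0.26, which is below 0 on every array, and the second had -1.10, -0.37, -0.07 and 0.13. As deposited the first had a mean of -0.31 ± 0.13 (adjusted p = 0.194, limma) and the second -0.35 ± 0.54 (adjusted p = 0.285), and turned they had -0.05 ± 0.38 (adjusted p = 0.922) and -0.38 ± 0.51 (adjusted p = 0.531). At 12 hrs the values of the first feature were 0.08, -0.38, -0.29 and -0.09 and those of the second -0.46, 0.05, -0.04 and 0.02. On the 7th day the first had -0.31, 0.01, -0.19 and -0.76 and the second 0.26, -0.65, -0.15 and 0.37, so that on replicate 4 the 2 features of this gene had opposite signs and differed by 1.13.

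Obp56h, known for a role in male mating behaviour, had the lowest mean of any member at 12 hrs with the swapped arrays turned. Its first feature had -0.67 and -0.91 on the forward arrays and 0.09 and -0.06 on the swapped ones, with a mean of -0.40 ± 0.46 turned (n = 4, adjusted p = 0.302, limma) and -0.39 ± 0.48 as deposited (adjusted p = 0.997). Its second feature had values between -0.09 and 0.00 on the same arrays and a mean of 0.02 ± 0.04 turned (adjusted p = 0.903) and -0.03 ± 0.04 as deposited (adjusted p = 0.997). The low forward values were thus seen in 1 of its 2 features. The second feature of Obp56e ranged from -0.59 to 0.44 over the first 2 time points. Its first feature was measured on the 7th day only, with 0.80, -0.29 and 0.53 on replicates 1 to 3, and the second 0.72 and 0.53 on replicates 1 and 3.

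The genes Obp19a, Obp19b, Obp19c and Obp19d follow each other directly on the X chromosome in the gene table. Obp19a had 1 of the highest means of the 2nd day with the swapped arrays turned. It had 0.64 and 0.80 on the forward arrays and -0.22 on replicate 4 as deposited, and thus a mean of 0.55 ± 0.30 turned (n = 3, adjusted p = 0.497, limma) and 0.41 ± 0.55 as deposited (adjusted p = 0.265). At 12 hrs, with 2 arrays and no test, it had 0.84 on forward replicate 2 and -0.38 on swapped replicate 3, and on the 7th day 0.08, 0.35, -0.08 and 0.07. Obp19a was therefore above 0 on every forward array that measured it, at all 3 time points.

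Obp19b had a second feature with small and even values at 12 hrs, of 0.22, 0.27, -0.12 and -0.21, which have 1 sign when the swapped arrays are turned (mean 0.21 ± 0.06, n = 4, adjusted p = 0.310, limma). As deposited the mean was 0.04 ± 0.24 (adjusted p = 0.997). On the 2nd day it had 0.28, -0.04, 0.33 and -0.01. Its first feature had 2.84 on replicate 4 of the 2nd day, from spots of 5.72 and -0.03.

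Of the 2 features of Obp19c, the first had 0.31, 0.20, -0.51 and -0.30 at 12 hrs, or a mean of 0.33 ± 0.13 turned with 1 sign on all arrays (adjusted p = 0.255, limma) and -0.07 ± 0.39 as deposited (adjusted p = 0.997). On the 2nd day it had -0.70, -0.45, -0.35 and -0.01, or a mean of -0.38 ± 0.28 as deposited with 1 sign (adjusted p = 0.194) and -0.20 ± 0.47 turned (adjusted p = 0.669), and on the 7th day 0.07, 0.10 and 0.24 on replicates 1 to 3. It was thus above 0 on both forward arrays at 12 hrs and below 0 on both of the 2nd day. The second feature had 0.11, 1.37 and 1.88 on replicates 1, 2 and 4 at 12 hrs, 0.71, 0.10 and 1.78 on the same replicates of the 2nd day and -0.28, -0.60 and -0.11 on replicates 1 to 3 of the 7th day. Its means as deposited were 1.12 ± 0.91 at 12 hrs (adjusted p = 0.997) and 0.86 ± 0.85 on the 2nd day (adjusted p = 0.194), and turned -0.13 ± 1.64 and -0.33 ± 1.29. It is the less certain feature of the gene, since its spots were over 1 apart on 3 of these arrays, and 3.44 apart on replicate 1 of the 2nd day. Over all arrays and Obp features, the median distance between the 2 spots was 0.14.

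Obp19d, a protein of antennal and taste sensilla, was below 0 on all 4 arrays of the 2nd day in both features. The first had -0.32, -0.22, -0.23 and -0.24 and the second -0.08, -0.19, -0.46 and -0.23, with means of -0.25 ± 0.05 (adjusted p = 0.200, limma) and -0.24 ± 0.16 (adjusted p = 0.226) as deposited, and of -0.02 ± 0.30 and 0.10 ± 0.30 turned. On the 7th day the second feature had -0.36, -0.27, -0.56 and -0.94, again below 0 on every array, with a mean of -0.53 ± 0.30 as deposited (adjusted p = 0.358) and 0.22 ± 0.63 turned (adjusted p = 0.964). At 12 hrs it had 0.29, -0.18, -0.19 and 0.02. Its 2 features differed by a median of 0.12 over 11 arrays.

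Among the odorant binding proteins outside these groups, Obp57c and Obp44a had the lowest means of the 7th day as deposited. Obp57c had -0.47, -0.34, -0.15 and -1.43 on that day in its first feature, with a mean of -0.60 ± 0.57 (n = 4, adjusted p = 0.243, limma) as deposited and 0.19 ± 0.87 turned (adjusted p = 0.964). Without replicate 4, the array with the median of -0.64, the mean as deposited was -0.32 (n = 3). Its second feature, measured on replicates 1 to 3, was also below 0, at -0.09, -0.44 and -0.20. At 12 hrs the first feature had 0.19, 0.20, 0.05 and 0.06 and on the 2nd day 0.28, -0.15, 0.30 and 0.15, so that values below 0 on all arrays were confined to the 7th day among the 3 time points.

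Obp44a, made in glia of the central nervous system, where it binds fatty acids, had -0.63, -0.37 and -0.71 on replicates 1 to 3 of the 7th day. The mean was -0.57 ± 0.18 as deposited (n = 3, adjusted p = 0.435, limma) and -0.09 ± 0.71 turned (adjusted p = 0.972). At 12 hrs its values were -0.16, -0.22 and 0.25 on replicates 2 to 4 and on the 2nd day 0.25, -0.22, -0.23 and -0.10, without 1 sign.

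Obp8a, also known from seminal fluid, and Obp47a had a value on all 12 arrays. Obp8a had 0.30, -0.02, -0.39 and -0.27 at 12 hrs, then -0.09, -0.36, -0.65 and -0.08 on the 2nd and -0.14, 0.04, -0.19 and -0.55 on the 7th day. Obp47a had 0.09, -0.34, -0.46 and -0.11, then -0.51, -0.28, -0.11 and -0.08, and then 0.15, -0.12, 0.13 and -0.35 at the same time points. Both were below 0 on all 4 arrays of the 2nd day, with means of -0.29 ± 0.27 (adjusted p = 0.216, limma) and -0.24 ± 0.20 (adjusted p = 0.237) as deposited, and of 0.07 ± 0.43 and -0.15 ± 0.30 turned.

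Obp83cd, of the dimer subgroup, had a mean of -0.33 ± 0.22 at 12 hrs in its second feature with the swapped arrays turned, from -0.13, 0.56 and 0.30 on replicates 2 to 4 (adjusted p = 0.296, limma). As deposited it had the opposite sign, 0.24 ± 0.35 (adjusted p = 0.997). On the 2nd day its first feature had 0.64, 0.49, 0.10 and -0.10, with means of 0.28 in both readings. Obp84a, an antennal protein, was measured only on the 7th day, at 0.41, 0.08 and -0.16 on replicates 1 to 3, with a mean of 0.22 ± 0.18 turned (adjusted p = 0.964) and 0.11 ± 0.29 as deposited (adjusted p = 0.911). Obp59a, needed for the sensing of humidity, was not measured at 12 hrs, and its 2 features differed by a median of 1.24 over 7 arrays. Its first feature had -2.14, 1.48 and 1.86 on replicates 1 to 3 of the 2nd day, where its second had 0.08, 0.25 and 0.24. The spots of the first feature lay 3.67 and 1.74 apart on the forward arrays of that day, and no direction can be read from its values there. On the 7th day the first feature had 0.54, -0.04, 0.46 and 0.86, and its spots lay closer together. The mean of that day was 0.45 ± 0.37 as deposited (unadjusted p = 0.0341, adjusted p = 0.474, limma) and -0.20 ± 0.60 turned (adjusted p = 0.964). The second feature had 0.17, 0.02, 0.11 and -0.61 on the same arrays.

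The receptor genes had only 5 features. None passed an adjusted p of 0.05 in the fits over 4 arrays without a coefficient for dye orientation, in either reading. Gr61a, a receptor for sugars, was the only receptor measured on 3 or more arrays at every time point. It had 0.09, -0.57, 0.03 and 0.40 at 12 hrs, -0.33, -0.21 and 0.09 on replicates 1 to 3 of the 2nd day and -0.14, 0.11 and -0.46 on replicates 1, 3 and 4 of the 7th day. Its means were, turned, -0.23 ± 0.31 (n = 4, adjusted p = 0.375, limma), -0.21 ± 0.12 (n = 3, adjusted p = 0.585) and 0.07 ± 0.34 (n = 3, adjusted p = 0.977). As deposited they were -0.01 ± 0.41, -0.15 ± 0.21 and -0.16 ± 0.29.

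Or33a, an odorant receptor, had 0.42, -0.21, -0.34 and -0.09 at 12 hrs and -0.11, -0.23, -0.43 and -0.17 on the 2nd day, when it was below 0 on all 4 arrays. The means of the 2nd day were -0.24 ± 0.14 as deposited (n = 4, unadjusted p = 0.0393, adjusted p = 0.223, limma) and 0.06 ± 0.30 turned (adjusted p = 0.861). It had no value on the 7th day. Ir47a had 0.15, -0.43, -0.04 and 0.16 at 12 hrs and -0.18, -0.15, 0.20 and 0.06 on the 2nd day, with 1 sign when turned and a mean of -0.15 ± 0.06 (n = 4, adjusted p = 0.615), against -0.02 ± 0.18 as deposited (adjusted p = 0.920). Ir76a, of amine-sensing neurons of the antenna, was tested only on the 7th day, when it had 0.53, 0.50, 0.06 and -0.65, or 0.41 ± 0.32 turned (adjusted p = 0.964) and 0.11 ± 0.55 as deposited (adjusted p = 0.893). Ir93a, needed for cool and humidity sensing, had a single value, of -1.08 on replicate 2 of 12 hrs. The co-receptors Orco, Ir8a, Ir25a and Ir76b, with which many of these receptors work, had no feature among the 37 members.

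Odorant binding proteins and receptors were compared by the median of their means, as a description, because the features share arrays, dyes and in part genes. With the swapped arrays turned the Obp median was 0.07 for 12 hrs (20 features), -0.02 for the 2nd day (25) and 0.09 for the 7th (26), beside 0.07, -0.08 and 0.16 over all features tested. The receptor median was -0.10 (3 features), -0.15 (3) and 0.24 (2). As deposited the Obp medians were -0.06, -0.11 and -0.09, beside 0.00, -0.10 and -0.13 over all features, and the receptor medians -0.04, -0.15 and -0.03. Array by array, with the swapped arrays turned, the Obp median ranged from -0.03 to 0.18 for 12 hrs, from -0.15 to 0.15 for the 2nd day and from -0.06 to 0.58 for the 7th, and that of the receptors from -0.43 to 0.15, from -0.21 to 0.06 and from -0.09 to 0.56. The ranges of Obp and receptor medians overlapped at each time point. The 7th day was the most variable, with a median SD, turned, of 0.39 for the Obp features against 0.21 for 12 hrs and 0.30 for the 2nd. Over all features the median SD was 0.40, 0.19 and 0.23 in the same order. The array medians of the 7th day over all features tested were, turned, -0.06, 0.13, 0.06 and 0.65. Nothing was centred, so that the offset of replicate 4 enters the SD of each feature measured there.

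Differences between time points were fitted jointly, over all 12 arrays, for the 17 members with a value on at least 3 arrays at each, 16 Obp features and Gr61a. Turned, 0 of 17 passed for the 2nd day minus 12 hrs (0% of 2079 features), for the 7th day minus the 2nd day (0.0481% lower and 0% higher) and for the 7th day minus 12 hrs (0%). As deposited 0 of 17 passed as well, where the shares were 0%, 0.0481% lower and 0.722% lower. The smallest adjusted p, 0.098, belonged to the second feature of Obp19c, which was lower by 1.45 on the 7th day than at 12 hrs as deposited.

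Other genes of chemosensation were taken from a list of 43 symbols, of which 9 had a feature. None of their features passed an adjusted p of 0.05 at any time in either reading. The pheromone-binding odorant binding protein lush was tested on the 7th day only, at 0.01 ± 0.46 turned and 0.18 ± 0.40 as deposited (n = 3). The medians of the tested features were -0.06 (3 features), -0.21 (5) and 0.16 (6) in time order turned, and 0.00, -0.19 and -0.42 as deposited. Over all features tested the medians were 0.07, -0.08 and 0.16 turned, and 0.00, -0.10 and -0.13 as deposited. The 6 features of the 7th day included 2 of Galphaq. Antdh, an antennal dehydrogenase, had -0.08 ± 0.15, -0.21 ± 0.15 and 0.19 ± 0.69 turned, and -0.02 ± 0.18, -0.08 ± 0.27 and -0.45 ± 0.48 as deposited. The 2 features of Galphaq, a G protein subunit with roles in several senses, had the lowest means of the list on the 7th day as deposited, -0.66 ± 0.36 and -0.78 ± 0.64 (adjusted p = 0.286 and 0.113, limma), and 0.14 ± 0.87 and 0.28 ± 1.10 turned.

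Marker genes checked the tissue only in part, since a ratio gives no level. Of 5 features of photoreceptor genes 4, 5 and 4 had a value in time order, and of 3 features of neuronal genes all had one. Of 4 features of testis and accessory gland genes, which mark bodies rather than heads, 1, 0 and 2 had a value. Of 2 features of gut genes, which also mark bodies, 1, 1 and 0 had a value. Of 2 features of glial genes 1 had a value at each time, and of 3 features of muscle genes all had one. With the swapped arrays turned the photoreceptor medians were 0.44, 0.03 and 0.37, those of the neuronal genes 0.25, -0.07 and 0.23 and those of the head fat body genes 0.20, -0.44 and 0.63. As deposited they were 0.02, 0.10 and -0.55, -0.13, -0.13 and -0.34, and -0.25, -0.81 and -1.13. These medians rest on 4, 4 and 3 tested features of photoreceptor genes and on 3, 3 and 2 of neuronal genes. Those of the head fat body rest on 6, 6 and 2 features, from 5, 5 and 1 genes. The 2 neuronal features of the 7th day had opposite signs as deposited, -0.85 and 0.18. As deposited on the 7th day, 2 tested features of 1 fat body gene passed as lower. The part of these lists in the values of the odorant binding proteins was not tested.

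The study's own lists of lower genes, chosen on these arrays and thus no independent evidence of direction, held 0 member genes at 12 hrs, 10 in the portion of the 2nd day list held here and 5 on the 7th day. The 16 tested features of the 10 genes had means from -0.38 to 0.20 turned, of which 12 were below 0, and from -0.39 to 0.86 as deposited, of which 15 were below 0. The highest as deposited was the second feature of Obp19c. The 9 features of the 5 genes of the 7th day had means from -0.11 to 0.37 turned, 2 of them below 0, and from -0.60 to -0.17 as deposited, all 9 below 0.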

How the data were processed

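The authors scanned the 12 cDNA arrays with GenePix, normalized by ratio in Acuity and removed spots on saturation, flags, intensity and background. The deposited values are log2 ratios, and all 12 columns were mapped to samples. Symbols came from the array's annotation and RefSeq's Release 6 gene table. The files name no genome build, so no coordinates are given.

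Each feature is the mean of the deposited log2 ratios of its 2 neighbouring spots. Those measured on 3 or 4 arrays of a time point were tested there with limma (version 3.58.1, R 4.3.3), 2-sided, with Benjamini-Hochberg adjustment over all features and a threshold of 0.05. All values of the members came from 2 spots. The steps were tested on simulated data. Named features are those past the threshold, at each time those with the largest means of 1 sign on all arrays (up to 4 each for Obp and receptors, in either reading), those with a value on all 12 arrays, Obp99d and the study's lists. Other members that passed an unadjusted p, or whose spots or features disagreed, were named after their values were seen. Members and lists were chosen with earlier results of these data known. Alternatives were the other reading, centring, subtraction of neighbouring features, averaging per gene, other minimums of arrays, single dye orientations, 1 fit over all arrays, a dye coefficient, an unmoderated test, the one-class test SAM, a replicate block and leaving out replicates. The number of arrays limits the precision.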

Additional observations from a re-analysis of the deposited data

Results flagged for a closer look

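In 43 groups of 4 values of the named features, with the swapped arrays turned, 3 had a value far from the other 3, and chance alone gives about 1 in 20 such groups. The first feature of Obp56d on the 2nd day had 0.37 on replicate 3, where the other arrays lay between -0.15 and -0.11. The third feature of the same gene on the same day had 0.34 on replicate 4, and the others 0.15 to 0.17. The second feature of Obp56g at 12 hrs had -0.46 on replicate 1, against -0.02 to 0.05 on the others. No member differed between time points at an adjusted p under 0.05 in limma.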

How the results depend on the processing

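At 12 hrs, where 0 members passed, 2 passed on the forward arrays only (2.49% of all features), 1 with centring as well (2.59%) and 3 in SAM at a false discovery rate of 0.25 (26.4% of all features). On the 2nd day, also 0, the count was 9 with dye orientation as a coefficient (18.5% of all features). It was 14 on the forward arrays only (41.1%), 13 with centring as well (27.5%) and 0 on the swapped arrays only (1.21%). SAM gave 9 (38.2%) and, as deposited, 16 (60.3%), with Or33a and Gr61a among the 16. On the 7th day, also 0, it was 1 as deposited (0.672%), 7 in SAM as deposited (15.3%) and 1 on the swapped arrays only (0.166%), the second feature of Obp99d (-1.58, adjusted p = 0.00246 in limma). In that fit of 2 arrays all features were given a common spread, so that the call followed the mean alone. SAM as deposited, the settings that leave out a replicate from deposited ratios, and settings that pair centring with the deposited ratios or with the forward arrays were chosen after seeing the data. Leaving out a replicate gave 0 to 1 members at 12 hrs (1 without replicate 3, 1.31% of all features turned and 0.151% as deposited). It gave 0 to 2 on the 2nd day, namely 1 without replicate 2 (0.0189%) and 2 without replicate 3 (1.23%), and as deposited 1 without replicate 1 (0.0568%) and 2 without replicate 4 (2.16%). On the 7th day it gave 0 to 1, namely 1 without replicate 1 (0.718%), and as deposited 1 without replicate 1 (0.139%) and 1 without replicate 2 (2.15%). The cause was not tested.

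The Obp median of 12 hrs went from 0.07 to -0.062 as deposited and -0.074 with centring as well, and that of the 2nd day from -0.02 to 0.15 on the swapped arrays only. The receptor median of the 2nd day went from -0.15 to -0.018 as deposited with centring and 0.087 on the swapped arrays only. Many named features had opposite signs in the 2 readings without passing the test in either. Among changes of sign in which either value passed an adjusted p of 0.05, those seen were the second feature of Obp99d on the 7th day (-0.62, against 0.96 as deposited, 1.24 without replicate 1 and 1.11 without replicate 2), the second of Obp19c at 12 hrs (-0.13, against 0.74 on the forward arrays and 1.12 as deposited without replicate 3) and on the 2nd day (-0.33, against 0.40 on the forward arrays and 0.60 with centring), and the second of Obp19b on the 2nd day (-0.02, against 0.32 on the forward arrays with centring). The second feature of Obp19c had no value on replicate 3 of 12 hrs, so that leaving this array out did not change its mean. With all arrays the same mean had an adjusted p of 0.997 (limma). Arrays of the same replicate number at different time points correlated little. Over 613 features, 2 of 12 same-numbered pairs correlated over 0.1 (from -0.07 to 0.18). Pairs of different number ranged from -0.25 to 0.27. These correlations cannot show whether same-numbered arrays were prepared together. With the replicate number as a block 0 of 17 members passed between time points, as without it. The spread of the 4 arrays limits which ratios pass.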
